A study of Mus musculus with 12 samples.

Results

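The 36 genes described here are transcripts that mark cells other than endothelium: 5 of the erythroid lineage, 3 of platelets, 5 of leukocytes, 9 of microglia and macrophages, 5 of astrocytes, 4 of the oligodendrocyte lineage, 3 of neurons and 2 of fibroblasts. They were taken by name from a table of 21638 genes, as a list fixed by cell type and not by measured values, and all 36 were found. The question they address is how pure the sorted cells were, and whether that purity was alike in the groups.

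RNA was sequenced from cortical endothelial cells of adult mouse brain, sorted by flow cytometry as cells with CD31 and without CD41 and CD45 on the surface. There were 4 groups of 3 libraries. WT mice were the controls, and whether they carried the Cre is not given in the sources used here. The mutants carried Cdh5CreERT2, a tamoxifen-inducible Cre recombinase driven by the endothelial cadherin gene, with Hdac2lox/lox (Hdac2 ECKO), Ezh2lox/lox (Ezh2 ECKO) or Ctnnb1lox/lox (beta-catenin GOF, constitutive activation of beta-catenin). Mice received 5 tamoxifen doses of 75 mg/kg, 2 months before the brains were taken, and the labels do not say whether this held for WT. Strain, age beyond adult, sex and the number of animals behind a library were not used here, so p-values measure the spread between these libraries, which may in part be technical.

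The libraries held 24781070 to 36109975 counts each. Levels are given as counts, as CPM (counts per 1000000 of the TMM-scaled library total), or as TPM where genes are compared with each other, since only TPM takes gene length into account. A count of 0 in a library allows up to 0.0831 to 0.121 counts per 1000000, taken as 3 counts of the unscaled library total. Fold bounds below use 3 counts of the TMM-scaled total instead. Of the targeted genes, Hdac2 was at 129 ± 30.1 CPM in WT, against 96.5 ± 15.1 CPM in Hdac2 ECKO (SD, n = 3 each; log2 fold change −0.42, edgeR adjusted p = 0.22). In beta-catenin GOF Hdac2 was as low, at 96.1 ± 10.1 CPM (SD, n = 3), with a log2 fold change of −0.43 (edgeR adjusted p = 0.88). The lower level was thus not particular to Hdac2 ECKO and does not check that label. Ezh2 was at 6.75 ± 3.52 CPM in WT, against 8.92 ± 3.36 CPM in Ezh2 ECKO, with a log2 fold change of 0.40 (edgeR adjusted p = 0.61). That change is smaller than its standard error (0.46), so the level of Ezh2 does not check the label either. As Ezh2 was not lower, those libraries are called "labelled Ezh2 ECKO" below. Ctnnb1 was at 654 ± 138 CPM in WT, against 583 ± 109 CPM in beta-catenin GOF, which does not check that label, since an activating allele need not lower the transcript. Counts per gene would also miss the loss of single exons. Axin2, a known target of beta-catenin signalling, did not mark the beta-catenin GOF libraries either. They held 17.8, 21.3 and 23.1 CPM of it, overlapping the 10.1, 16.5 and 19.9 CPM of WT (edgeR adjusted p = 0.91). Its mean was higher in the other mutants, at 31.8 CPM for Hdac2 ECKO and 29.1 CPM for libraries labelled Ezh2 ECKO. The reason for this order was not tested. In every library the endothelial genes Pecam1 (55.3 to 149 TPM), which encodes CD31, Cdh5 (54.0 to 178 TPM) and Cldn5 (686 to 3648 TPM) were present.

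Red cells, platelets and leukocytes share the vessel lumen with brain endothelium, and astrocyte endfeet, pericytes and microglia touch its outer face. A sort on surface proteins removes most of these cells, but fragments, adhering cells and free RNA can remain. Red cells and reticulocytes carry hemoglobin messenger RNA at very high level, so even a small carry-over is visible. In bulk RNA, fewer cells of a type and less RNA per cell cannot be told apart.

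The 2 alpha-globin genes, Hba-a1 (ENSMUSG00000069919.7, chromosome 11, 32283511 to 32284465, plus strand, GRCm38) and Hba-a2 (chromosome 11, 32296489 to 32297298, plus strand), and the 2 adult beta-globin genes, Hbb-bs (ENSMUSG00000052305.6, chromosome 7, 103826534 to 103828096, minus strand) and Hbb-bt (chromosome 7, 103812524 to 103813996, minus strand), are pairs of near-identical copies. The coding sequences in GENCODE M21 are 429 bases long for both alpha genes and 444 bases for both beta genes. Each pair differed at 1 base, C381T from Hba-a1 to Hba-a2 and C417T from Hbb-bs to Hbb-bt, counted from the A of the start codon. The stretch around that base is shown because it is the only part of the coding sequence by which reads of the copies can be told apart. The differing base is in capitals, with 25 bases on either side.
Hba-a1: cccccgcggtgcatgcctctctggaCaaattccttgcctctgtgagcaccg
Hba-a2: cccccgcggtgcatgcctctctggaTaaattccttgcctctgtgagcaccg
Hbb-bs: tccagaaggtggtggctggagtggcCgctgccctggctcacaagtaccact
Hbb-bt: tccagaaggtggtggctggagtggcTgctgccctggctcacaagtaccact

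Of the 150-base windows of the Hba-a1 transcript, 48.4% occurred unchanged in that of Hba-a2, and for Hbb-bs and Hbb-bt it was 58.7%. How the authors' counting split such reads is not given in the sources used here, so the level of a single copy is uncertain and the sum is firmer. The count of Hba-a1 over that of Hba-a2 was 1.06 to 1.10 in 9 libraries. It was 1.39 and 1.41 in libraries 1 and 3 labelled Ezh2 ECKO, with 1.49 for beta-catenin GOF 1, so the copies did not keep 1 ratio throughout. The ratio of alpha to beta counts ranged from 1.14 in WT 3 to 1.66 in Hdac2 ECKO 1.

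Hemoglobin transcripts made up a large and very uneven part of the libraries. The 4 genes together took 3.61%, 3.64% and 5.46% of the counts in WT 1 to 3. In Hdac2 ECKO they took 2.31%, 0.0481% and 0.107%, and in libraries labelled Ezh2 ECKO 0.252%, 0.548% and 0.371%. The shares of beta-catenin GOF were 3.20%, 0.0535% and 2.91%. WT was high in all 3 libraries and libraries labelled Ezh2 ECKO were low in all 3. Hdac2 ECKO and beta-catenin GOF each held libraries of both kinds: Hdac2 ECKO 1 stood apart from its group on the high side, and beta-catenin GOF 2 stood apart on the low side. The highest share was 113 times the lowest, while counting error was small: the exact 95% binomial interval of the lowest share was 0.0473% to 0.0490%. Reads without molecular identifiers are not independent molecules, and mates counted one by one are not independent reads. These intervals and the floors therefore cover counting error only, and even for that may be too narrow and too low.

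On the scale of level per gene length, hemoglobin lay well above or well below a whole list of endothelial transcripts, depending on the library. The 4 genes summed to 1553 to 144109 TPM, with a median of 42807 TPM over the 12 libraries. That median fell in a gap and describes no library: none lay between 14923 TPM, in a library labelled Ezh2 ECKO, and 70691 TPM, in Hdac2 ECKO. A list of 16 endothelial genes summed to 33609 to 52530 TPM, with a median of 42051 TPM, and so varied far less. Hba-a1 stood above Cldn5, a tight-junction gene of the blood-brain barrier, in 9 of 12 libraries, at 0.128 to 28.1 times its TPM. Every marker gene other than hemoglobin stood below Cldn5 in all 12 libraries. The other 32 genes together summed to 18.0 to 108 TPM.

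**Figure D1:**
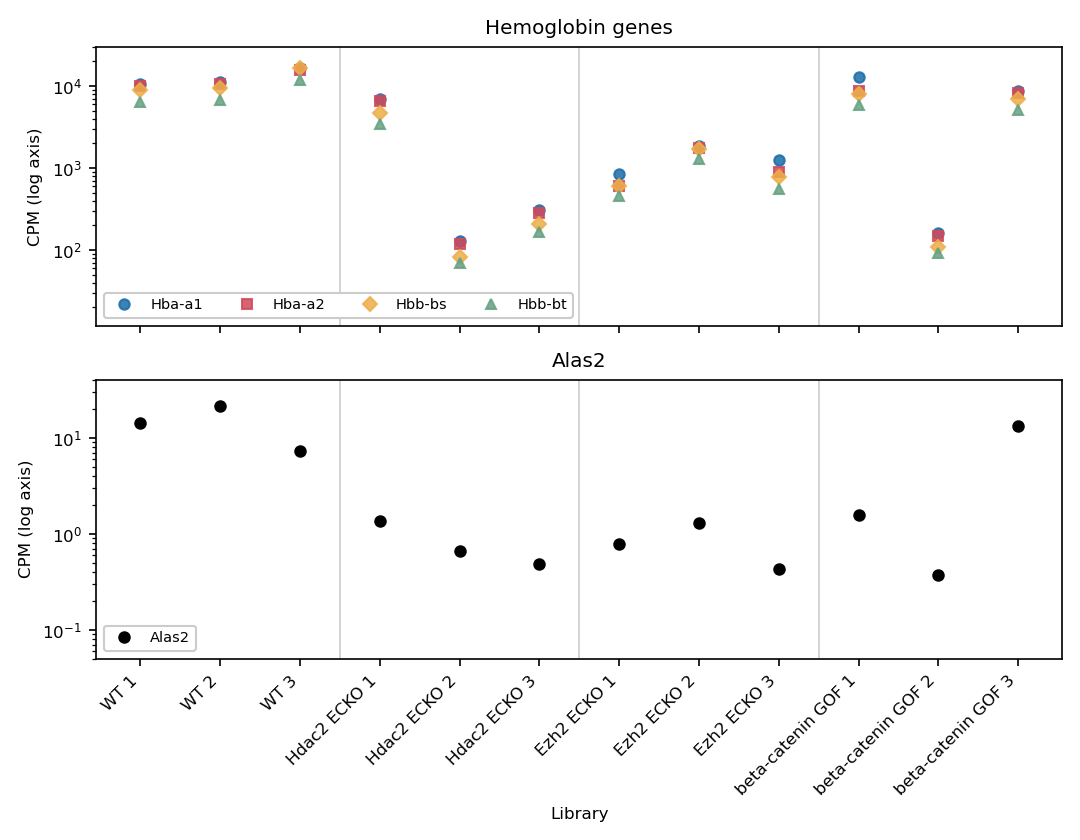
Level of the 4 hemoglobin genes (upper panel) and of Alas2 (lower panel) in CPM on log axes, 1 point per gene and library, with grey lines between the groups. The 4 hemoglobin genes move together; all 3 WT libraries, Hdac2 ECKO 1, beta-catenin GOF 1 and beta-catenin GOF 3 lie at or above 3438 CPM in each of them, and the other 6 libraries lie at or below 1868 CPM.

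Hba-a1 showed the same pattern gene by gene. It was at 10696, 11291 and 16868 CPM in WT. Hdac2 ECKO held 7012, 128 and 308 CPM, and libraries labelled Ezh2 ECKO 848, 1868 and 1267 CPM. beta-catenin GOF held 12852, 161 and 8807 CPM. Hdac2 ECKO and libraries labelled Ezh2 ECKO did not overlap WT, and beta-catenin GOF did, since its replicate 1 lay above WT 1 and WT 2. The group means were 12951 ± 3404 CPM in WT, 2483 ± 3923 CPM in Hdac2 ECKO, 1328 ± 513 CPM in libraries labelled Ezh2 ECKO, with 7273 ± 6483 CPM for beta-catenin GOF (SD, n = 3 each).

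No hemoglobin gene passed the main test in any contrast. All 12 libraries entered edgeR's quasi-likelihood F test, with Benjamini-Hochberg adjustment over the 12577 genes whose mean count reached 10, at a threshold of 0.05. For Hba-a1 the log2 fold change against WT was −2.38 (SE 1.22, edgeR adjusted p = 0.19) in Hdac2 ECKO and −3.29 (SE 1.27, edgeR adjusted p = 0.13) in libraries labelled Ezh2 ECKO. In beta-catenin GOF it was −0.83 (SE 1.17, edgeR adjusted p = 0.95). Other settings ended that reading in the first 2: Hba-a1 passed in 3 of 11 in Hdac2 ECKO (no filter on low counts, and limma with either pseudocount, where it was −4.28) and in 3 of 11 in libraries labelled Ezh2 ECKO (no filter, DESeq2 and a fit of only the groups compared). Single libraries set these sizes: without Hdac2 ECKO 1 the value in that group was −5.92, and without beta-catenin GOF 2 the value in that group was −0.26. With the 3 mutant groups averaged, it was −2.17 (SE 0.87, edgeR adjusted p = 0.14), and without Hdac2 ECKO 1 it was −3.35 and passed (edgeR adjusted p = 0.040). The other hemoglobin genes ran from −2.40 to −2.82 in Hdac2 ECKO, from −3.44 to −3.50 in libraries labelled Ezh2 ECKO and from −1.10 to −1.22 in beta-catenin GOF.

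Alas2 (chromosome X, 150547375 to 150570638, plus strand), the erythroid enzyme that starts heme synthesis, was lower in Hdac2 ECKO than in WT. Its counts were 410, 671 and 206 in WT. They were 36, 20 and 14 in Hdac2 ECKO, 24, 33 and 12 in libraries labelled Ezh2 ECKO, then 46, 14 and 452 for beta-catenin GOF. The 6 libraries of the first 2 mutants lay below every WT library, and beta-catenin GOF 3 lay within the WT range. The means were 14.3 ± 6.95 CPM in WT, 0.833 ± 0.466 CPM in Hdac2 ECKO, 0.836 ± 0.436 CPM in libraries labelled Ezh2 ECKO, with 5.02 ± 7.04 CPM for beta-catenin GOF (SD, n = 3 each).

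The log2 fold change of Alas2 in Hdac2 ECKO was −4.10 (SE 0.98, edgeR adjusted p = 0.034), with all 3 libraries lower. It was −4.09 (SE 0.98, edgeR adjusted p = 0.056) in libraries labelled Ezh2 ECKO, with −1.51 (SE 0.87, edgeR adjusted p = 0.89) for beta-catenin GOF. The mean of the 3 mutant groups stood at −3.23 on the log2 scale (SE 0.64, edgeR adjusted p = 0.029), with 8 of 9 libraries below every WT library. That call was lost without WT 1, WT 2, Hdac2 ECKO 3, library 1 labelled Ezh2 ECKO or beta-catenin GOF 1 (edgeR adjusted p = 0.051 to 0.17). In Hdac2 ECKO the call was lost without WT 1, WT 2, Hdac2 ECKO 1 or Hdac2 ECKO 3 (edgeR adjusted p = 0.10 to 0.16) and stood without either of the other 2 libraries. It was also lost with no variance trend (edgeR adjusted p = 0.081) and with the length trend removed (edgeR adjusted p = 0.052). The value in libraries labelled Ezh2 ECKO passed in 7 of 12 other settings. The gene overlaps Apex2 on the opposite strand, and whether the counting used strand is not given in the sources used here.

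Alas2 did not keep a fixed ratio to hemoglobin. There were 44.4 Alas2 counts per 1000000 hemoglobin counts in beta-catenin GOF 1 and 1632 in Hdac2 ECKO 2. WT 3 held the most hemoglobin of all libraries and ranked 4 of 12 for Alas2 in CPM. beta-catenin GOF 1 and beta-catenin GOF 3 held like hemoglobin shares, and 44.4 against 450 Alas2 counts per 1000000 of them. The pair of readouts thus ordered the libraries differently within the high-hemoglobin set.

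Of 10 further erythroid genes on a wider list, 9 were in the table and 4 were tested. Bpgm, which makes the 2,3-bisphosphoglycerate that lowers the oxygen affinity of hemoglobin, was the 1 that passed, and it is also expressed outside red cells. Its counts were 2060, 1734 and 864 in WT, against 366, 652 and 444 in Hdac2 ECKO, 318, 488 and 294 in libraries labelled Ezh2 ECKO, then 928, 858 and 1706 for beta-catenin GOF. Its log2 fold change was −1.64 (SE 0.38, edgeR adjusted p = 0.034) in Hdac2 ECKO and −1.97 (SE 0.38, edgeR adjusted p = 0.045) in libraries labelled Ezh2 ECKO. In beta-catenin GOF it was −0.60 (SE 0.37, edgeR adjusted p = 0.89). Both groups with a call lay wholly below WT. Each call was lost in 4 of 6 fits without 1 library: without WT 1, WT 2 or replicate 1 or 3 of the mutant (edgeR adjusted p = 0.098 to 0.16). Both were also lost with no variance trend.

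Platelet transcripts were found in nearly all libraries despite a gate against CD41, and no difference between groups passed the test. Itga2b encodes CD41 itself, the alpha chain of the platelet fibrinogen receptor, and was the most abundant of the 3 in counts. Per length it was the lowest of the 3 by median, at 0.286% of the TPM of Cldn5, against 0.827% for Pf4 and 0.558% for Ppbp. It held 158, 206 and 284 counts in WT, against 380, 162 and 215 in Hdac2 ECKO. Those labelled Ezh2 ECKO held 304, 477 and 287, and beta-catenin GOF 962, 597 and 296. The highest value was in beta-catenin GOF 1. In counts, beta-catenin GOF and libraries labelled Ezh2 ECKO lay above WT, and once scaled to CPM every mutant group overlapped WT. The means were 7.37 ± 2.43 CPM in WT, 9.04 ± 4.75 CPM in Hdac2 ECKO, 12.97 ± 5.02 CPM in libraries labelled Ezh2 ECKO, with 19.0 ± 12.4 CPM for beta-catenin GOF (SD, n = 3 each). The log2 fold changes were 0.29 (SE 0.48, edgeR adjusted p = 0.70), 0.82 (SE 0.48, edgeR adjusted p = 0.31), and last 1.37 (SE 0.49, edgeR adjusted p = 0.715). None passed.

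The 2 platelet chemokine genes spread far more between libraries than Itga2b did. Pf4, which encodes platelet factor 4, held 108, 134 and 230 counts in WT, against 544, 6 and 208 in Hdac2 ECKO. It held 80, 446 and 16 counts in libraries labelled Ezh2 ECKO, then 106, 60 and 377 for beta-catenin GOF. Ppbp, which encodes pro-platelet basic protein, held 156, 136 and 554 counts in WT, against 294, 0 and 286 in Hdac2 ECKO, 6, 336 and 2 in libraries labelled Ezh2 ECKO, then 190, 42 and 670 for beta-catenin GOF. Ppbp was at or under 6 counts in Hdac2 ECKO 2 and in libraries 1 and 3 labelled Ezh2 ECKO. Of these, Hdac2 ECKO 2 was also last for Itga2b, and the other 2 ranked 7 and 5 of 12 for it. Pf4 ran over a 105-fold range of CPM over the 12 libraries and Itga2b over a 6.21-fold range. The CD41 gene and the chemokine genes therefore ordered the libraries differently: Hdac2 ECKO 2 ranked last for all 3, but beta-catenin GOF 1 ranked 1 for Itga2b, 8 for Pf4 and 6 for Ppbp. No contrast passed for either gene, and of 10 further platelet genes 3 were tested and none passed against WT.

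**Figure D2:**
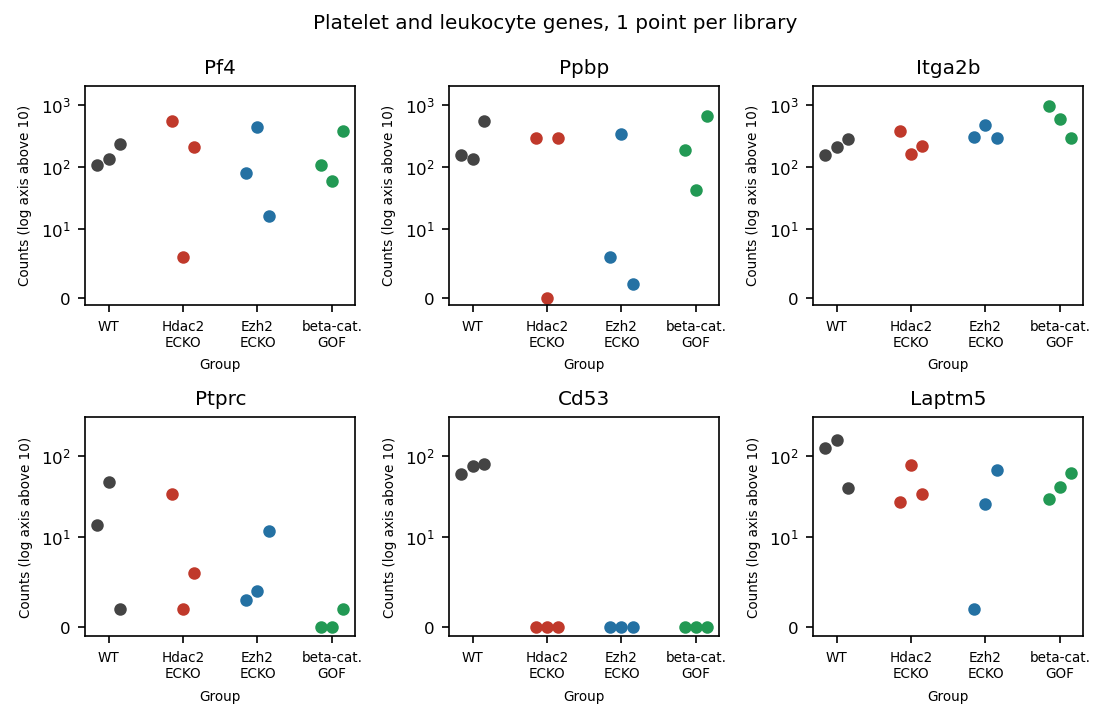
Counts of 3 platelet genes and 3 leukocyte genes, 1 point per library and group in replicate order, on an axis that is linear up to 10 and logarithmic above. Cd53 holds 60, 76 and 80 counts in WT and 0 in the other 9 libraries, while within Hdac2 ECKO Pf4 runs from 6 to 544 counts and Ppbp from 0 to 294.

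The 5 pan-leukocyte genes were scarce in every library, and their sum was highest in WT. They summed to 225, 366 and 260 counts in WT and to 11 to 106 counts in the 9 mutant libraries, so WT lay above all of them. Per length they summed to 6.77 to 10.7 TPM in WT and to 0.422 to 3.23 TPM in the mutants. Ptprc, which encodes CD45, the protein the gate selected against, held 14, 48 and 2 counts in WT, against 34, 2 and 6 in Hdac2 ECKO and 3, 4 and 12 in libraries labelled Ezh2 ECKO. In beta-catenin GOF it held 0, 0 and 2 counts. Both higher values, in WT 2 and Hdac2 ECKO 1, were single libraries of their group, and no contrast passed.

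Cd53 (chromosome 3, 106759921 to 106790149, minus strand), a tetraspanin of the leukocyte surface, was detected in WT alone. It held 60, 76 and 80 counts in WT, a mean of 2.44 ± 0.385 CPM (SD, n = 3). It held 0 counts in all 9 mutant libraries, so its mean count reached the minimum for a test only through WT, and the p-values below rest on a gene that had to differ. Where both mates of a fragment were counted, 3 counts stand for fewer than 3 fragments, so the fold bounds given here may be too high. Against a floor of 3 counts per library Cd53 was at least 23.3-fold lower in Hdac2 ECKO (edgeR adjusted p = 0.034). It was at least 22.7-fold lower in libraries labelled Ezh2 ECKO (edgeR adjusted p = 0.048). In beta-catenin GOF it was at least 27.3-fold lower, with the same counts of 0, and did not pass by edgeR (adjusted p = 0.35), while DESeq2 called it (adjusted p = 0.0021). Averaged over the 3 mutant groups it was at least 24.3-fold lower (edgeR adjusted p = 0.012), with 9 of 9 libraries below every WT library. The averaged call stood in 11 of 12 fits without 1 library and was lost without WT 2 (edgeR adjusted p = 0.073). In Hdac2 ECKO it was lost without WT 1, WT 2, Hdac2 ECKO 1 or Hdac2 ECKO 3, and in libraries labelled Ezh2 ECKO without WT 1, WT 2 or libraries 1 or 3 so labelled. The latter call stood in 6 of 11 other settings, with a highest adjusted p of 0.070 over them.

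The other pan-leukocyte genes did not share this all-or-none pattern. Laptm5, a lysosomal membrane protein gene and the most abundant of the class, held 128, 160 and 40 counts in WT. It held 27, 78 and 34 in Hdac2 ECKO, 2, 26 and 68 in libraries labelled Ezh2 ECKO, then 30, 42 and 62 for beta-catenin GOF. WT 3 lay within the range of every mutant group. Its log2 fold changes were −1.20 (SE 0.90, edgeR adjusted p = 0.36), −1.63 (SE 0.91, edgeR adjusted p = 0.28), and last −1.47 (SE 0.91, edgeR adjusted p = 0.89). Cd52, a small glycoprotein gene of lymphocytes, held 22, 62 and 138 counts in WT and 0 to 43 in the mutants. Coro1a, an actin regulator of blood cells, held 0 to 20 counts in WT and 0 to 24 in the mutants, and so did not differ in range. Coro1a and Cd52 overlap Bola2 and Crybg2 on the opposite strand.

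Of 19 further leukocyte genes 9 were tested and none passed against WT. The neutrophil genes S100a8 and S100a9, named after their values were seen, stood out in library 2 labelled Ezh2 ECKO with 2014 and 1764 counts. The other 11 libraries held 2 to 316 counts of S100a8 and 0 to 287 of S100a9. Hemoglobin in that library was 0.548% of the counts. The next highest S100a8 counts, 316, 288, 235 and 47, were in WT 3, Hdac2 ECKO 1, WT 1 and WT 2, all rich in hemoglobin. Also rich in hemoglobin, beta-catenin GOF 1 and beta-catenin GOF 3 held 12 and 6. A link between neutrophil and hemoglobin transcripts was not tested.

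Microglia and macrophage genes were at 0 in 52.8% of their values, and of the 9 only Csf1r was above 3 counts in all 12 libraries. Csf1r encodes the receptor for colony-stimulating factor 1 on which microglia depend. It held 46, 87 and 28 counts in WT, against 62, 42 and 54 in Hdac2 ECKO, 112, 166 and 230 in libraries labelled Ezh2 ECKO, then 70, 116 and 102 for beta-catenin GOF. All 3 libraries labelled Ezh2 ECKO lay above every WT library. The means were 1.78 ± 0.893 CPM in WT and 6.14 ± 2.34 CPM in libraries labelled Ezh2 ECKO (SD, n = 3 each), against 1.86 ± 0.489 CPM in Hdac2 ECKO and 2.80 ± 0.363 CPM in beta-catenin GOF. The log2 fold change was 1.78 (SE 0.53) in libraries labelled Ezh2 ECKO and did not pass (edgeR adjusted p = 0.079), while DESeq2 called it (1.76, adjusted p = 0.018). It was 0.06 (SE 0.52, edgeR adjusted p = 0.95) in Hdac2 ECKO and 0.65 (SE 0.52, edgeR adjusted p = 0.92) in beta-catenin GOF. Csf1r overlaps Hmgxb3 on the opposite strand.

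The genes that define resident microglia were close to the floor in most libraries. Tmem119, a microglial membrane protein gene, held 8 counts in WT 1, 2 in library 2 labelled Ezh2 ECKO and 0 in the other 10. P2ry12, the microglial ADP receptor gene, held 0 to 40 counts, with the highest value in library 2 labelled Ezh2 ECKO, and was at 0 in 5 libraries. Cx3cr1, the fractalkine receptor gene, held 0 to 12 counts and was at 0 in 8. In libraries labelled Ezh2 ECKO, where Csf1r was highest, Tmem119 held 0, 2 and 0 counts, P2ry12 2, 40 and 2 and Cx3cr1 1, 0 and 0.

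The 3 subunit genes of complement C1q, made by microglia and macrophages, moved by library. C1qb held 98, 36 and 24 counts in WT, against 0, 18 and 0 in Hdac2 ECKO, 0, 132 and 0 in libraries labelled Ezh2 ECKO and 0 in each beta-catenin GOF library. C1qc held 96, 24 and 18 counts in WT, against 0, 26 and 0 in Hdac2 ECKO, 0, 30 and 0 in libraries labelled Ezh2 ECKO and 0 in each beta-catenin GOF library. C1qa was at 0 in 6 libraries and reached 53 counts in Hdac2 ECKO 2. C1q transcripts outside WT thus lay mainly in Hdac2 ECKO 2 and in library 2 labelled Ezh2 ECKO. In beta-catenin GOF, C1qb was at least 20.1-fold and C1qc at least 17.6-fold lower than in WT, and neither passed (edgeR adjusted p = 0.69 each). These bounds use the same floor as those of Cd53 and may be too high for the same reason. They also rest on WT 1: without it they were 11.1-fold and 7.82-fold. Aif1, which encodes the calcium-binding protein Iba1, held 19, 2 and 12 counts in WT and 0 to 8 in the mutants, and Mrc1, the mannose receptor gene of perivascular macrophages, held at most 5 counts. Of 17 further genes of the class 8 were tested and none passed against WT.

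**Figure D3:**
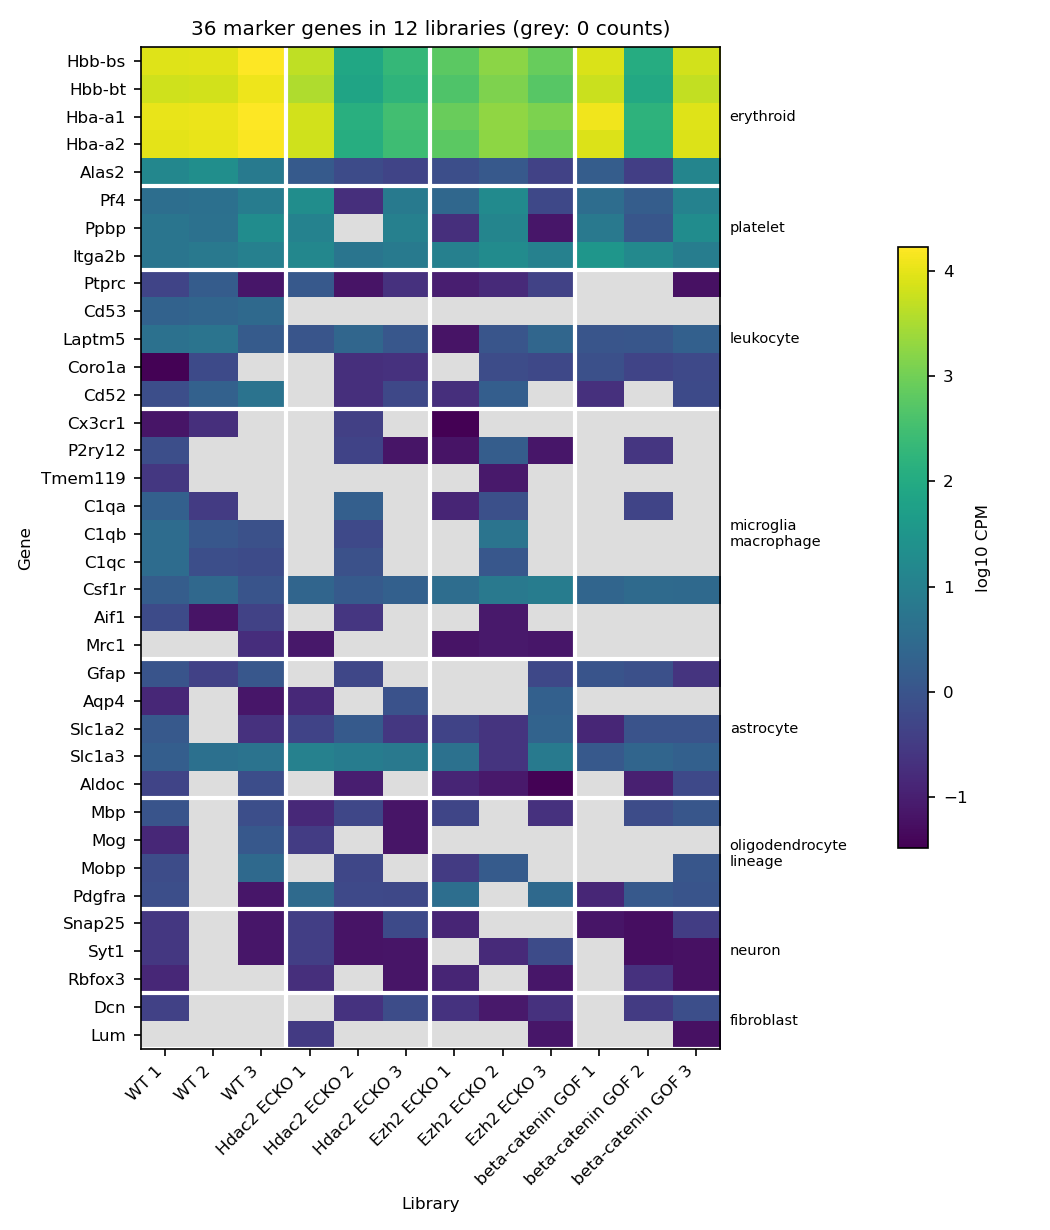
Level of the 36 genes (rows, grouped by cell type) in the 12 libraries (columns, white lines between groups), coloured by log10 CPM, with grey for 0 counts. The hemoglobin rows are the brightest in every library, the Cd53 row is grey outside WT, and 134 of the 432 cells are grey.

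Astrocyte genes were low and were dominated by Slc1a3, the gene of the glutamate transporter GLAST. It held 47, 129 and 135 counts in WT, against 280, 254 and 196 in Hdac2 ECKO, 135, 6 and 204 in libraries labelled Ezh2 ECKO, then 38, 88 and 62 for beta-catenin GOF. All 3 Hdac2 ECKO libraries lay above WT in CPM, with means of 8.56 ± 1.92 CPM against 3.51 ± 1.66 CPM (SD, n = 3 each). The log2 fold change there was 1.29 (SE 0.75) and did not pass (edgeR adjusted p = 0.24). In libraries labelled Ezh2 ECKO it was 0.18 (SE 0.74, edgeR adjusted p = 0.90), with a sign that turned under other settings, and in beta-catenin GOF −0.95 (SE 0.75, edgeR adjusted p = 0.91). The other 4 genes did not move with it. Gfap, the intermediate filament gene of astrocytes, held 0 to 32 counts, and Slc1a2, the gene of the glutamate transporter GLT-1, 0 to 61. Aqp4, the water channel gene of astrocyte endfeet, was at 0 in 7 libraries and reached 50 counts in library 3 labelled Ezh2 ECKO. Aldoc, a glycolytic enzyme gene, held at most 20 counts.

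Oligodendrocyte-lineage genes held 0 to 144 counts in sum. The myelin genes Mbp, Mog and Mobp reached 38, 34 and 82 counts and were at 0 in 3, 8 and 6 libraries. Pdgfra, the growth factor receptor gene of oligodendrocyte precursors that fibroblasts also express, was the most abundant. It held 22, 0 and 2 counts in WT, against 80, 18 and 16 in Hdac2 ECKO, 118, 0 and 80 in libraries labelled Ezh2 ECKO, then 4, 48 and 34 for beta-catenin GOF. The groups overlapped. Its log2 fold changes were 2.31 (SE 1.54, edgeR adjusted p = 0.31), 2.99 (SE 1.57, edgeR adjusted p = 0.25) and, in beta-catenin GOF, 1.51 (SE 1.51, edgeR adjusted p = 0.94), with standard errors too wide to call a direction. All 4 genes were at 0 in WT 2.

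Of 14 further genes of the lineage 8 were tested and 1 passed. Cspg4, which encodes the NG2 proteoglycan of oligodendrocyte precursors and also of pericytes, and which stands on the mural list too, held 5, 0 and 4 counts in WT, against 98, 34 and 52 in Hdac2 ECKO. It held 4, 6 and 14 in libraries labelled Ezh2 ECKO, then 80, 10 and 20 for beta-catenin GOF. Its log2 fold change in Hdac2 ECKO was 4.35 (SE 1.27, edgeR adjusted p = 0.046). In the same group the mural gene Rgs5 was at 60.4 ± 23.03 CPM against 28.2 ± 9.52 CPM in WT (SD, n = 3 each; log2 fold change 1.10, edgeR adjusted p = 0.046). A list of 12 mural genes summed to 65.6 to 97.2 TPM in WT, 181 to 340 TPM in Hdac2 ECKO, 59.8 to 69.4 TPM in libraries labelled Ezh2 ECKO, with 122 to 385 TPM for beta-catenin GOF. In Hdac2 ECKO 5 of the 12 mural genes passed as higher than in WT, where 3.82% of all genes tested did. For beta-catenin GOF 0 of 12 did, where 0.0% of all genes did, and for libraries labelled Ezh2 ECKO 0 of 12, where 0.342% did. In Hdac2 ECKO 0 of the 12, Cspg4 and Rgs5 included, passed without WT 1, WT 2, Hdac2 ECKO 1 or Hdac2 ECKO 3, or with no variance trend, and Cspg4 was also lost without WT 3 (edgeR adjusted p = 0.058). The part of mural transcripts in the Cspg4 result was not tested.

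The 3 neuron and 2 fibroblast genes were near the limit of detection. Snap25, which encodes a synaptic vesicle fusion protein, held 0 to 18 counts, as did Syt1, the vesicle calcium sensor gene. Rbfox3, which encodes the nuclear antigen NeuN, held 0 to 8. The 3 neuronal genes together never exceeded 25 counts in a library and were all at 0 in WT 2. Dcn, the gene of the matrix proteoglycan decorin, held 0 to 26 counts, and Lum, which encodes lumican, was at 0 in 9 libraries and reached 8 counts. None of these 5 genes reached the mean count needed for a test, so the main fit says nothing on differences between groups in them. Of 12 further neuronal and 8 further fibroblast genes, 4 and 5 were tested and none passed against WT. Not all of these were scarce: Stmn2, on the neuronal list, held 1578 to 10720 counts and Apod, on the fibroblast list, 3306 to 11680, both named after their values were seen.

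**Figure D4:**
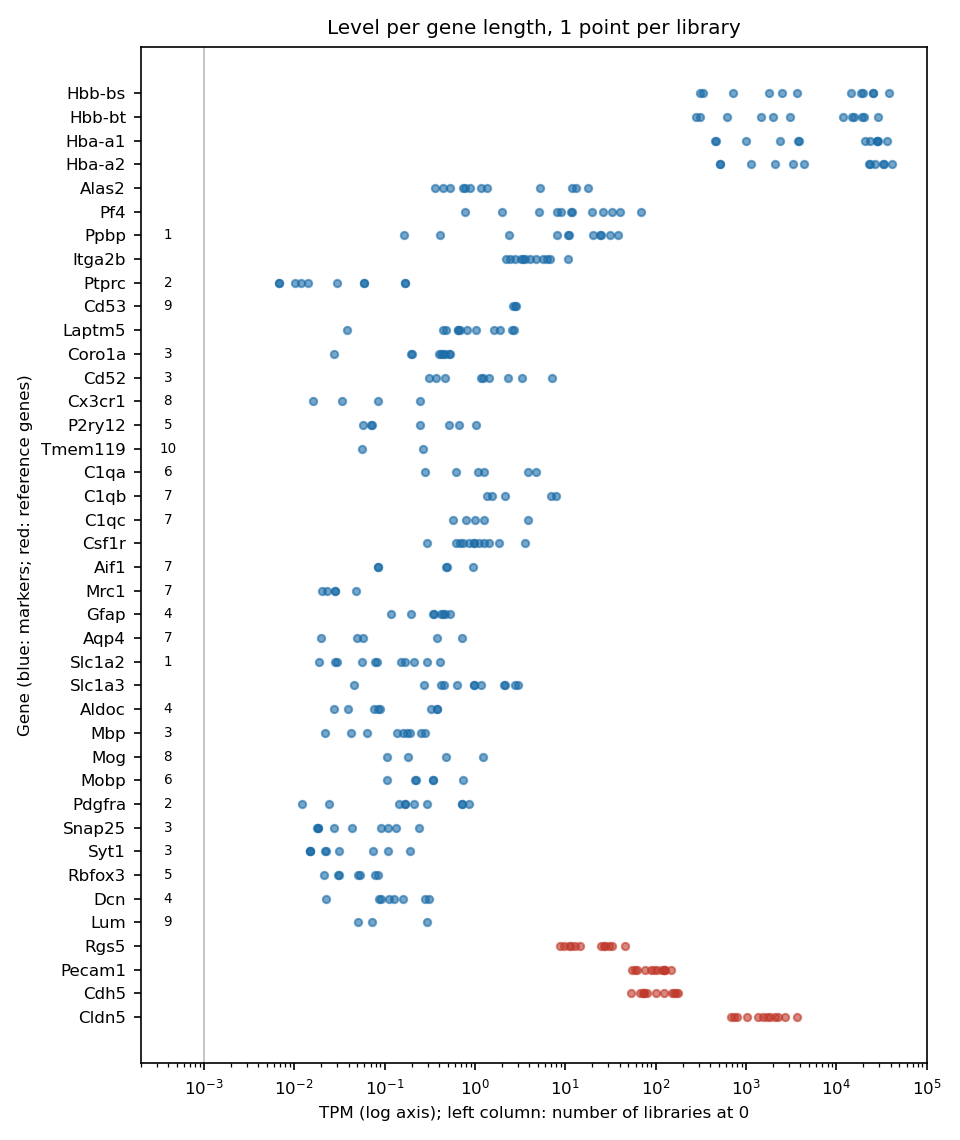
Level per gene length (TPM, log axis) of the 36 genes in blue and of Rgs5, Pecam1, Cdh5 and Cldn5 in red, 1 point per library, with the number of libraries at 0 printed on the left. Hemoglobin genes reach above Cldn5, and Pf4, Ppbp, Alas2 and Itga2b reach the range of Rgs5. The other marker genes lie below Pecam1 throughout.

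Across all 36 genes, 134 of 432 values (31.0%) were 0. The share was 23.1% in WT, 31.5% in Hdac2 ECKO, 29.6% in libraries labelled Ezh2 ECKO, with 39.8% for beta-catenin GOF. WT held the highest CPM of 19 of the 36 genes, Hdac2 ECKO of 5, libraries labelled Ezh2 ECKO of 7 and beta-catenin GOF of 5. WT 3 alone held the highest of 12. Of the 5 in Hdac2 ECKO 3 were in replicate 1, and of the 7 in libraries labelled Ezh2 ECKO 4 were in replicate 3. The 19 include the 4 hemoglobin genes, which move as 1, and near-floor genes such as Tmem119 (at most 8 counts) and Mrc1 (at most 5). Detection over all genes also differed by library, from 13922 genes above 0 in library 2 labelled Ezh2 ECKO to 17091 in Hdac2 ECKO 1. The highest library was not counted over all genes, so these counts only describe the 36.

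Of the 36 genes 23 had a mean count of at least 10 and were tested: all 13 of the erythroid, platelet and leukocyte classes, 4 of 9 microglial, 3 of 5 astrocyte, 3 of 4 oligodendrocyte-lineage and none of the neuron and fibroblast genes. As a gene can reach that mean through WT alone, the counts below give no support beyond the single tests. In Hdac2 ECKO 2 of the 23 passed, Alas2 and Cd53, both lower, where 9.2% of all genes tested passed and 5.38% passed as lower. In libraries labelled Ezh2 ECKO 1 passed, Cd53, where 1.03% of all genes passed and 0.684% passed as lower. In beta-catenin GOF none passed by edgeR, where 0.0% of all genes did. There 5 of the 23 had an unadjusted p under 0.05, against 6.06% of all genes, and DESeq2 called 2. Over all genes DESeq2 called 38 there. Averaged over the mutants 2 passed, again Alas2 and Cd53 and both lower, where 2.31% of all genes passed and 1.85% passed as lower. The 3 contrasts share the WT libraries and are not independent of each other. The shares over all genes hang on single libraries: in Hdac2 ECKO the 1157 calls became 0 without WT 1, WT 2 or Hdac2 ECKO 3, 1 without Hdac2 ECKO 1, 1868 without WT 3 and 2220 without Hdac2 ECKO 2. The 129 calls in libraries labelled Ezh2 ECKO became 2 to 7 without WT 1, WT 2 or libraries 1 or 3 so labelled, 1138 without WT 3 and 2328 without library 2.

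The median log2 fold change was −1.22 in Hdac2 ECKO, −1.23 in libraries labelled Ezh2 ECKO, with −1.10 for beta-catenin GOF, beside 0.10, 0.05 and 0.01 over all genes tested. In Hdac2 ECKO 8 of the 23 lay wholly below WT, where 18.2% of all genes did, and 1, Slc1a3, lay wholly above, where 19.5% did. In libraries labelled Ezh2 ECKO it was 6 below, where 10.9% of all genes did, and 1, Csf1r, above, where 11.1% did. In beta-catenin GOF it was 8 below, where 5.87% of all genes did, and none above, where 6.83% did. The hemoglobin genes, which counted 4, 4 and 3 times among these, move as 1 and are not separate findings. Cd53, C1qc and Ptprc reached the mean count needed for a test only through WT. The medians and the counts of genes below WT therefore give no support beyond the single tests.

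**Figure D5:**
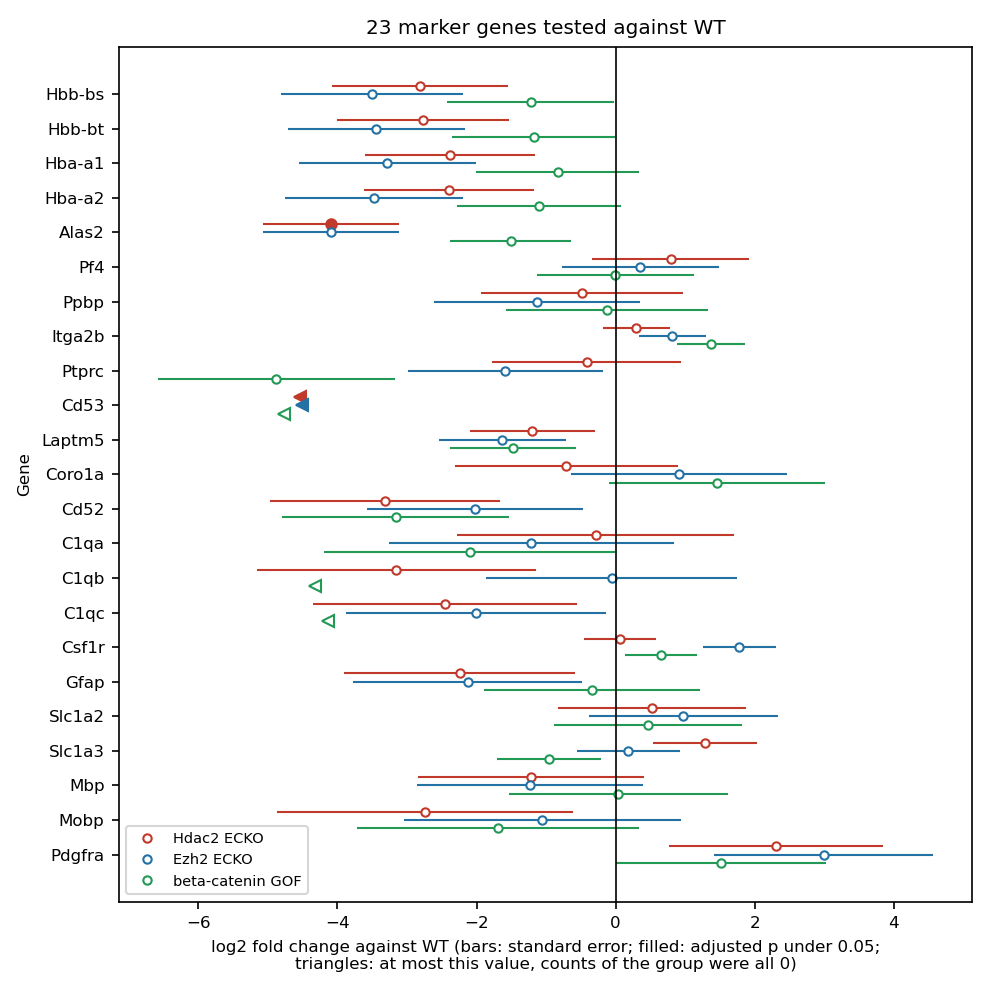
Log2 fold change against WT of the 23 tested genes in the 3 mutant groups, with standard errors as bars and filled symbols for an edgeR adjusted p under 0.05. Triangles give the bound for genes whose counts were all 0 in the mutant group; erythroid and leukocyte genes lie left of 0 in most contrasts, platelet genes around 0, and Alas2 and Cd53 carry the 3 filled symbols.

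Between the mutant groups none of the 23 genes passed by edgeR. In Hdac2 ECKO against libraries labelled Ezh2 ECKO 1 gene had an unadjusted p under 0.05, Csf1r, where 8.19% of all genes did and 0.0239% passed the adjusted test. In beta-catenin GOF against Hdac2 ECKO 5 had one, where 21.1% of all genes did and 0.0716% passed. In beta-catenin GOF against libraries labelled Ezh2 ECKO 4 had one, where 13.2% of all genes did and 0.0636% passed, and DESeq2 called 1. Over all genes DESeq2 called 144 in that contrast. No difference between mutants in hemoglobin, Alas2 or Cd53 was shown by this test.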

How the data were processed

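The authors deposited 1 table of 21638 genes by 12 libraries. Its title calls the values normalized, but the deposited values are whole-number counts: totals differed between libraries, and 79.5% to 84.0% of values from 10 to 50 were even, the pattern of counting mates one by one. They were used as raw counts. Per the submitters' processing notes the tools were FastQC, cutadapt, STAR, featureCounts and DESeq2, with build mm10, and the annotation, the use of strand and filters are not given in the sources used here. Gene positions matched GENCODE M21 on GRCm38 for 98.4% of genes, and positions are counted from 1.

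The design foresaw edgeR for counts and limma for normalized values, so edgeR was used (edgeR 4.0.16, limma 3.58.1, DESeq2 1.42.0, R 4.3.3), with TMM scaling, 1 term per group and all 12 libraries. TPM was computed from the counts and the gene length in the table. The fits were tested on simulated data. Alternatives were other filters, scalings, tests, a fit of the compared groups only, a replicate block, a length correction and leaving out single libraries; leaving out the hemoglobin genes was added after seeing the data. The marker genes and lists were chosen with earlier results of these data known. Genes described in full were those past the threshold against WT and the one with the highest mean count in each class; further lists gave names only past the threshold, up to 4 a class, and exceptions are stated. A result of the further astrocyte list is not reported here.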

Additional observations from a re-analysis of the deposited data

How the results depend on the processing

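The counts of marker genes passing against WT were small and depended on the setting. In Hdac2 ECKO the count of 2 became 6 with no filter on low counts, 6 with limma at either pseudocount (1 or 0.5), 1 with a mean count of at least 50, 1 with DESeq2, 1 with the length trend removed and 0 with no variance trend. Over all genes there, 1157 calls of 12577 tested became 2279 of 20343 with no filter, which also let the scarcer marker genes be tested. They became 1712 and 1706 with limma, 1411 with the higher filter, 2553 with DESeq2, 596 with the length trend removed and 0 with no variance trend. In libraries labelled Ezh2 ECKO the count of 1 became 6 with no filter, 5 with DESeq2, 5 with only the groups compared, 3 and 2 with limma, and 0 with median-ratio scaling, library size alone, no variance trend or the length trend removed. Over all genes there, 129 calls became 1367 with no filter, 1280 with DESeq2, 17 with only the groups compared and 344 to 348 with limma. They became 76 with median-ratio scaling, 30 with library size alone, 1 with no variance trend and 103 with the length trend removed. In beta-catenin GOF the count of 0 became 3 with no filter, 1 with limma at either pseudocount and 2 with DESeq2. Over all genes there, 0 calls became 157 with no filter, 6 to 7 with limma and 38 with DESeq2. For the averaged mutants the count of 2 became 10 with no filter and 1 with a mean count of at least 50, DESeq2 or no variance trend. Over all genes, 291 calls became 1507 with no filter, 395 with the higher filter, 1369 with DESeq2 and 3 with no variance trend. Between mutants the count of 0 became 8 (beta-catenin GOF against Hdac2 ECKO) and 7 (against libraries labelled Ezh2 ECKO) with no filter, and 1 with DESeq2 in the latter. Over all genes in these contrasts, 9 and 8 calls became 978 and 359 with no filter, and 144 with DESeq2 in the latter. DESeq2 gave Cd53 no adjusted p in Hdac2 ECKO and for the averaged mutants. Leaving out single libraries gave 0 to 2 in Hdac2 ECKO, 0 to 4 in libraries labelled Ezh2 ECKO, 0 to 6 for the averaged mutants and 0 in the other 4 contrasts. Over all genes these fits gave 0 to 2220, 2 to 2328 and 0 to 2161 calls in the first 3 of these. For beta-catenin GOF they gave 0 to 4 against WT, 0 to 541 against Hdac2 ECKO and 1 to 731 against libraries labelled Ezh2 ECKO. They gave 1 to 3 for Hdac2 ECKO against libraries labelled Ezh2 ECKO. The causes of these changes were not tested.

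Whether the replicate numbers pair the libraries was not settled. The deviations of same-numbered libraries correlated with a mean r of 0.03 (−0.22 to 0.38, 18 pairs). Those of differently numbered libraries correlated with a mean r of −0.02 (−0.29 to 0.25, 36 pairs). Of 12 libraries 6 correlated best with their own number. With the replicate block the count of marker genes was 2 in libraries labelled Ezh2 ECKO, 4 for the averaged mutants, 3 in Hdac2 ECKO and 0 in the other 4 contrasts. Over all genes the block gave 536, 725 and 1832 calls in the first 3 of these, against 129, 291 and 1157 without it.

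Directions turned only in genes that did not pass. Itga2b in Hdac2 ECKO was −0.23 without Hdac2 ECKO 1, the lowest, and at most 0.59, without WT 3. Csf1r in Hdac2 ECKO was −0.15 with the length trend removed, −0.01 without WT 1, −0.23 without WT 3, −0.16 without Hdac2 ECKO 1 and at most 0.52, without WT 2. Slc1a3 in libraries labelled Ezh2 ECKO was −0.16 and −0.29 with limma, −0.20 with the length trend removed, −0.16 without WT 1, −0.59 without library 3 so labelled and at most 0.74, without library 2. For the averaged mutants Slc1a3 was −0.13 with the length trend removed, −0.17 without WT 1, −0.10 without library 3 labelled Ezh2 ECKO and at most 0.47, without WT 3. Scaling by library size alone moved the median over all genes in Hdac2 ECKO from 0.10 to 0.34 and turned no direction of the genes described in full. Depth limits the neuron, fibroblast and most microglial genes, which lie near the floor.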
